A study of Mus musculus with 9 samples.

Results

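A set of 10 genes of cell adhesion was examined in the newborn mouse lens, taken by symbol from a list that was drawn up with earlier results of these data known: the cadherins *Cdh1* and *Cdh2*, the catenins *Ctnna1*, *Ctnna2*, *Ctnnd1* and *Jup*, the immunoglobulin family adhesion molecule *Ncam1*, the Eph receptor *Epha2* and the ephrins *Efna5* and *Efnb2*. All 10 symbols were found once among the 47729 genes of the deposited tables. The study asked how whole lenses of 2 CRE transgenic lines compare with lenses of the inbred *FVB/N* strain. Wild-type *FVB/N* lenses were set beside those of *P0-3.9GFPCre* and of *Le-Cre* animals, both hemizygous and on the *FVB/N* background, and all were taken at P0, the day of birth. Every group consisted of 3 pools, and a pool combined the 6 lenses of 3 animals. In both transgenic lines a fragment of the mouse *Pax6* P0 promoter drives CRE in the lens placode, the surrounding surface ectoderm and later the lens epithelium; *P0-3.9GFPCre* makes a fusion of GFP and CRE, and *Le-Cre* makes CRE with GFP behind an internal ribosome entry site. Each line goes back to its own integrated transgene, so an effect of CRE, of GFP and of the insertion cannot be told apart, and no floxed allele was present in the design described.

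The lens is a single layer of epithelium over a mass of elongated fibre cells, and both compartments are held together by calcium-dependent cadherins. The intracellular tail of a cadherin binds a p120 type catenin and either beta-catenin or plakoglobin, and alpha-catenin links these to actin. N-cadherin, the product of *Cdh2*, is found in both lens compartments, whereas E-cadherin, the product of *Cdh1*, is kept in the epithelium and lost as fibres differentiate. Eph receptors are tyrosine kinases activated by membrane-bound ephrins on neighbouring cells, and *EPHA2* and *Efna5* are known for cataract when mutated in humans and mice, respectively.

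One member has 2 annotated transcripts that differ by an exon and, to a far greater extent, in length outside it. The sequence of the exon is given here. *Efna5*, which encodes the membrane-anchored ligand ephrin-A5, lies on the minus strand at chr17:62604184-62881317 (GRCm38, GENCODE M21) and has 2 annotated transcripts. The longer has 5 exons, and the shorter lacks exon 4, an exon of 81 bases or 27 codons at chr17:62613316-62613396. The exon and the junctions it makes or removes are written 5′ to 3′ in the sense of the transcript, the exon whole in capitals and, in each junction, 3 bases on each side of the splice site in capitals.
Exon 4 of *Efna5*: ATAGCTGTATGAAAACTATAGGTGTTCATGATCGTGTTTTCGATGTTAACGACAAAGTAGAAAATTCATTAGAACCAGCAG
Upstream junction with the exon: ttgtgagaccaaCAAATAgctgtatgaaaa
Downstream junction with the exon: cattagaaccagCAGATGacaccgtacatg
Junction of the transcript without the exon: ttgtgagaccaaCAAATGacaccgtacatg

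Expression was measured by RNA-Seq of polyadenylated RNA. The files hold RSEM's expected counts, an estimate of how many reads each gene gave, and TPM, which is scaled for gene length and library and is the main scale used here to compare 1 gene with another. Lines were compared on counts scaled to the normalized library size (CPM), with edgeR's quasi-likelihood test over all 15557 genes that passed its filter on low counts, Benjamini-Hochberg adjustment over all of them, and a cutoff of 1.5-fold or more together with an adjusted p of at most 0.05. All 10 members passed the filter. Total counts per pool ranged from 20670968 to 28098059, of which crystallins took 39.1% to 43.0% and the 10 members together 0.125% to 0.134%. Of 12 fibre markers and 10 epithelium markers, all were detected in the pools, with summed levels of 241772 to 275662 TPM for fibre and 593 to 692 TPM for epithelium, and those of cornea and epidermis summed to at most 0.79 TPM, with *Krt14*, *Krt12* and *Trp63* listed at 0 in every pool. In whole lenses, fewer cells of a type and less RNA per cell cannot be told apart. The Y-linked genes, whose level moves with the share of males in a pool, summed to 64.9 to 114 TPM in *FVB/N*, 0.49 to 80.6 TPM in *P0-3.9GFPCre* and 0.19 to 43.5 TPM in *Le-Cre* pools. The *FVB/N* and *Le-Cre* pools did not overlap in this level. A fit with it as a covariate can therefore tell line and share of males apart only in part, through the spread of this level within lines.

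The level of these genes in the lens followed a steep order. *Cdh2* was highest with a mean of 137 TPM over the 9 pools (SD 6.88), followed by *Ctnna1* with 56.2 TPM (SD 2.32) and *Cdh1* with 35.9 TPM (SD 2.25). *Epha2* (25.4 TPM, SD 3.11) and *Ctnna2* (25.01 TPM, SD 1.61) came next and were not separated, since *Epha2* was the higher of them in 5 of 9 pools. *Efnb2* (19.8 TPM), *Ctnnd1* (17.3 TPM) and *Efna5* (15.4 TPM) overlapped in this order, with *Efnb2* above *Ctnnd1* and *Ctnnd1* above *Efna5* in 8 of 9 pools each. The place of *Ctnnd1* is uncertain, because *Gm28635*, an overlapping gene that shares exons with it, had 10.3 to 14.4 TPM. Reads given to that gene are not part of the *Ctnnd1* level. *Ncam1* had a mean of 10.5 TPM and *Jup* of 1.43 TPM, below every other member in all 9 pools. Expressed as CPM per kb of the longest annotated transcript, a scale chosen after the data were seen, *Ctnna2* ranked 4, *Efnb2* 5 and *Epha2* 6, and the other places were the same. On that scale *Ctnnd1* and *Efna5* were not separated, with *Ctnnd1* the higher in 4 of 9 pools.

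**Figure D1:**
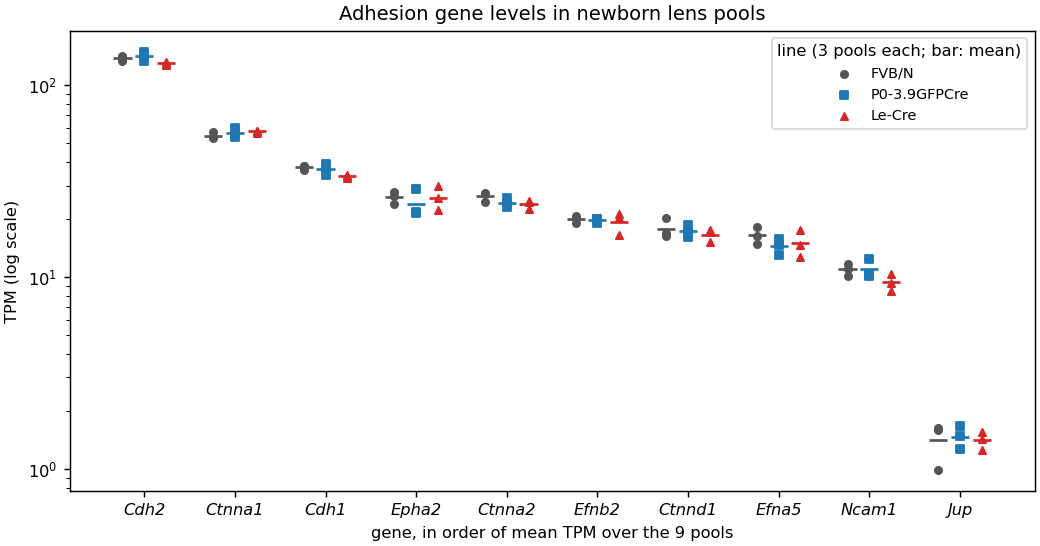
TPM of the 10 adhesion genes on a log scale, with 1 point for each of the 3 pools of *FVB/N*, *P0-3.9GFPCre* and *Le-Cre* and a bar at each line's mean. Levels run from about 137 TPM for *Cdh2* to 1.43 TPM for *Jup*, and the lines lie close together within every gene.

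None of the 10 genes passed the cutoff in any comparison. This count of 0 of 10 stands beside 10 of 15557 tested genes (0.0643%) in *Le-Cre* against *FVB/N*, and beside 0 genes (0.0%) in *P0-3.9GFPCre* against *FVB/N* and 0 genes (0.0%) in *Le-Cre* against *P0-3.9GFPCre*. At that background 0 of 10 is not a result about these genes, and neither is a count of 0 past the cutoff in the wider lists below. At an unadjusted p under 0.05 by the same edgeR test, 1 of 10 members stood out in *Le-Cre* against *FVB/N* (*Ncam1*; 7.94% of all genes), 1 of 10 in *P0-3.9GFPCre* against *FVB/N* (*Ctnna2*; 6.81%) and 0 of 10 between the transgenic lines (7.88%), shares close to the background. The pools of *Le-Cre* and *FVB/N* did not overlap for 3 members, against 13.5% of all genes; those of *P0-3.9GFPCre* and *FVB/N* did not for 2 members, against 12.0%; those of the 2 transgenic lines overlapped for all 10, against 14.1% without overlap over all genes. DESeq2 put 0 of 10 members past the cutoff in each comparison as well. In *P0-3.9GFPCre* against *FVB/N*, however, it gave an adjusted p to only 1929 genes, and a gene without one counted as not past the cutoff.

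The intervals bound how large a difference these pools leave room for. The 95% interval of the fold change lay inside 1.5-fold in either direction for 9 of 10 members in *Le-Cre* against *FVB/N*, 9 of 10 in *P0-3.9GFPCre* against *FVB/N* and all 10 between the transgenic lines. The exception in the first 2 comparisons was *Jup*, whose counts were the lowest of the list. Apart from *Jup*, the widest bounds on the log2 scale were -0.48 and 0.22 in *Le-Cre* and -0.40 and 0.20 in *P0-3.9GFPCre*, each against *FVB/N*. The log2 fold change was negative for 7 of 10 members in *Le-Cre* (median -0.11) and for 9 of 10 in *P0-3.9GFPCre* (median -0.09), where 7929 and 7777 of the 15557 tested genes were negative. Both comparisons share the *FVB/N* pools, so these counts are not separate observations. Between the transgenic lines 6 of 10 were negative, with a median of -0.003.

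**Figure D2:**
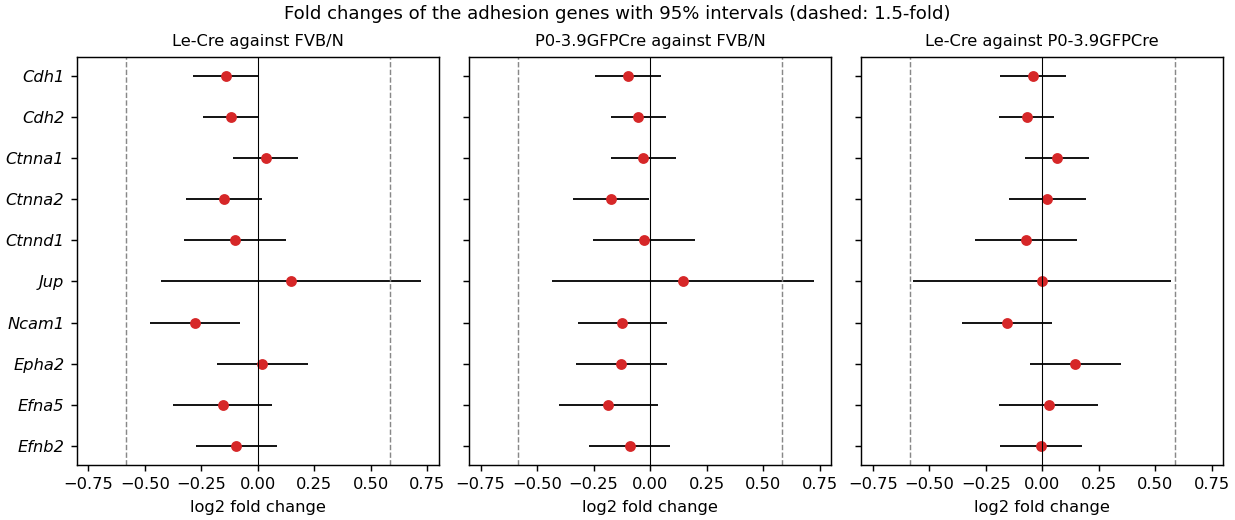
Log2 fold changes of the 10 genes with 95% intervals in *Le-Cre* against *FVB/N*, *P0-3.9GFPCre* against *FVB/N* and *Le-Cre* against *P0-3.9GFPCre*, with dashed lines at 1.5-fold. Every interval except those of *Jup* in the first 2 panels lies between the dashed lines, and the *Ncam1* interval in the first panel, from -0.48 to -0.08, lies wholly below 0.

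Both cadherins were slightly lower in *Le-Cre* lenses, by amounts that did not pass the test. *Cdh1* (chr8:106603351-106670246, plus strand) measured 141, 143 and 152 CPM in the *FVB/N* pools, 141, 139 and 128 CPM in the *P0-3.9GFPCre* pools and 136, 123 and 137 CPM in the *Le-Cre* pools. On this scale all 6 transgenic pools lay below the lowest *FVB/N* pool, though the closest of them, *P0-3.9GFPCre* replicate 1, had 141.1 CPM against 141.3 CPM in *FVB/N* replicate 1. In TPM the *P0-3.9GFPCre* and *FVB/N* pools overlapped, at 33.9 to 39.05 and 36.2 to 38.2 TPM, and limma on log2(TPM + 1) gave -0.03 for this comparison. The median of that fit over all genes was 0.045. By edgeR the log2 fold change of *Cdh1* was -0.14 (SE 0.07, edgeR adjusted p = 0.656) in *Le-Cre* and -0.10 (SE 0.07, edgeR adjusted p = 0.825) in *P0-3.9GFPCre* against *FVB/N*. *Cdh2* (chr18:16588877-16809246, minus strand) measured 556, 571 and 569 CPM in *FVB/N*, 561, 549 and 525 CPM in *P0-3.9GFPCre* and 521, 499 and 539 CPM in *Le-Cre* pools. The *Le-Cre* pools were the lower group without overlap with *FVB/N*, at a log2 fold change of -0.12 (SE 0.06, edgeR adjusted p = 0.646), and the *P0-3.9GFPCre* pools overlapped with both. These genes were counted deeply, with 2842 to 3834 reads for *Cdh1* and 11333 to 14688 for *Cdh2* in each pool.

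Beside these values, the summed level of the epithelium markers was 646 to 692 TPM in *FVB/N*, 658 to 674 TPM in *P0-3.9GFPCre* and 593 to 657 TPM in *Le-Cre* pools, and 0 of 10 markers passed the cutoff. The largest part of this sum was 1 gene, *Col4a1*, with a mean of 359 TPM. At an unadjusted p under 0.05 against *FVB/N*, 3 markers were lower and 1 higher in *Le-Cre* (7.94% of all genes), and 2 lower and 2 higher in *P0-3.9GFPCre* (6.81%). Their part in the cadherin values was not tested. The balance of the cadherins was compared within pools. *Cdh2* stood at 3.71 ± 0.164 times the TPM of *Cdh1* in *FVB/N* (SD, n = 3), 3.88 ± 0.0748 in *P0-3.9GFPCre* and 3.88 ± 0.140 in *Le-Cre*. The pools of the lines overlapped, and the two-sided exact permutation p was 0.3 for *Le-Cre* and 0.2 for *P0-3.9GFPCre* against *FVB/N*, and 1.0 between them, where 3 pools against 3 cannot give a p below 0.1. On expected counts, which leave out the effective length, the difference between *Le-Cre* and *FVB/N* was 0.0521 in place of 0.169, beside a *Cdh1* effective length that was longest in the *Le-Cre* pools.

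These cadherins held most of the message of the *Cdh* genes counted here, which leave out the desmosomal cadherins. Of the summed TPM of 22 cadherin genes, *Cdh2* took 69.9% to 71.9% and *Cdh1* 17.5% to 20.1% in each pool. Of the other 20, 5 reached a mean of 1 TPM: *Cdh4*, the R-cadherin, with 9.92 TPM, *Cdh5*, the cadherin of vessel endothelium, with 3.30 TPM, *Cdh11* with 1.82 TPM, *Cdh18* with 1.63 TPM and *Cdh6* with 1.31 TPM. *Cdh12*, *Cdh19* and *Cdh26* were listed at 0 in all pools. Vessel markers summed to 41.5 to 61.5 TPM in these lenses, which at birth still carry a vascular capsule, and their ranges overlapped among the lines. Of the 11 other cadherins tested 0 passed the cutoff. *Cdh3*, the P-cadherin, had the smallest unadjusted p in *Le-Cre* against *FVB/N* (0.00173, edgeR adjusted p = 0.28), at a log2 fold change of -1.38 (SE 0.34) from 0.557 TPM in *FVB/N* to 0.217 TPM in *Le-Cre*, a level of under 1 TPM.

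Of the catenins, *Ctnna1* encodes alpha-E-catenin and *Ctnna2* alpha-N-catenin. *Ctnna1* (chr18:35118859-35254779, plus strand) measured 186, 180 and 206 CPM in *FVB/N*, 194, 181 and 186 CPM in *P0-3.9GFPCre* and 198, 186 and 202 CPM in *Le-Cre* pools. The lines overlapped, with log2 fold changes of 0.03 (SE 0.06) in *Le-Cre* and -0.03 (SE 0.07) in *P0-3.9GFPCre* against *FVB/N*, so that the 95% intervals reached no farther than -0.17 and 0.18. *Ctnna2* (chr6:76881637-77979699, minus strand) measured 99.2, 94.7 and 90.2 CPM in *FVB/N*, 78.4, 91.6 and 82.2 CPM in *P0-3.9GFPCre* and 82.0, 82.1 and 92.0 CPM in *Le-Cre* pools. Each transgenic line had 1 pool above the lowest *FVB/N* pool. Its log2 fold change was -0.17 (SE 0.08, unadjusted p = 0.0469, edgeR adjusted p = 0.722) in *P0-3.9GFPCre* and -0.15 (SE 0.08, unadjusted p = 0.0767, edgeR adjusted p = 0.695) in *Le-Cre*. *Ctnna2* thus made up a smaller mean share of the alpha-catenin TPM in the transgenic pools, 29.6% ± 1.18 in *Le-Cre* and 30.3% ± 1.93 in *P0-3.9GFPCre* against 32.6% ± 2.16 in *FVB/N* (SD, n = 3), but the ranges overlapped and the two-sided exact permutation p was 0.2 for each line against *FVB/N* and 0.7 between the lines.

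*Ctnnd1* (chr2:84600071-84650765, minus strand) encodes p120-catenin, which binds the cadherin tail near the membrane and keeps cadherins at the surface. It measured 77.5, 80.0 and 83.6 CPM in *FVB/N*, 70.4, 85.3 and 80.7 CPM in *P0-3.9GFPCre* and 63.2, 80.5 and 81.5 CPM in *Le-Cre* pools. The lowest value of the 9 was that of *Le-Cre* replicate 1, and the lines overlapped. Against *FVB/N* the log2 fold change was -0.10 (SE 0.10, edgeR adjusted p = 0.865) in *Le-Cre* and -0.03 (SE 0.10, edgeR adjusted p = 0.977) in *P0-3.9GFPCre*. These values are uncertain because a readthrough gene, *Gm28635*, overlaps it on the same strand, shares 4482 of its 7319 exonic bases and held 35.8% to 50.1% of the counts given to the pair; of the 51-base sequences of *Ctnnd1*, 56.6% also occur there. *Le-Cre* replicate 1, where *Ctnnd1* was lowest, was the pool where *Gm28635* was highest, with 63.4 CPM against 44.9 to 55.9 CPM in the other 8. Summed over both genes, an alternative chosen after the data were seen, the pools ranged from 125 to 141 CPM, the log2 fold change in *Le-Cre* was -0.01 (SE 0.06, 95% interval -0.15 to 0.13), and that in *P0-3.9GFPCre* turned to 0.03 (SE 0.06).

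*Jup* (chr11:100368958-100397763, minus strand) encodes plakoglobin, the gamma-catenin shared by desmosomes and adherens junctions. It measured 4.12, 3.87 and 1.88 CPM in *FVB/N*, 3.78, 3.20 and 3.95 CPM in *P0-3.9GFPCre* and 3.52, 3.67 and 3.75 CPM in *Le-Cre* pools. *FVB/N* replicate 3 was the lowest of all pools, with 46.4 reads against up to 109 in the others, and without it the log2 fold change turned from 0.15 (SE 0.26) to -0.13 in *Le-Cre* and from 0.15 (SE 0.26) to -0.13 in *P0-3.9GFPCre* against *FVB/N*. The difference was not detectable at this depth in either direction. *Jup* made up 0.326% to 0.591% of the summed TPM of *Jup* and *Ctnnb1*, the gene of beta-catenin, which takes the same place on the cadherin tail.

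The partners of these catenins were among the most abundant adhesion messages of the lens. Of 16 other catenins and junction adaptors, 15 had a mean of at least 1 TPM, led by *Ctnnb1* with 286 TPM, by *Arvcf*, a further p120 type catenin, with 214 TPM, and by *Tjp1*, the scaffold protein ZO-1, with 148 TPM. None of these 16 passed the cutoff in any comparison, and the log2 fold changes of the leading genes in *Le-Cre* against *FVB/N* were -0.05 (SE 0.05) for *Ctnnb1*, -0.08 (SE 0.07) for *Arvcf* and -0.003 (SE 0.06) for *Tjp1*. At an unadjusted p under 0.05, 3 were higher and 3 lower in *Le-Cre* against *FVB/N*, where 7.94% of all tested genes were at that level, and 1 was higher and 2 lower in *P0-3.9GFPCre*, where 6.81% were. The smallest p values belonged to *Pvrl4*, the gene of nectin-4, with 0.46 (SE 0.15, edgeR adjusted p = 0.472), *Pvrl3*, that of nectin-3, with -0.20 (SE 0.07, edgeR adjusted p = 0.514), and *Pkp4*, that of plakophilin-4, with 0.17 (SE 0.06, edgeR adjusted p = 0.519), all log2 fold changes. In *P0-3.9GFPCre* against *FVB/N* the same genes had log2 fold changes of 0.60 (SE 0.15), -0.23 (SE 0.07) and 0.05 (SE 0.06), with edgeR adjusted p of 0.59, 0.637 and 0.9. Both sets of values rest on the same *FVB/N* pools.

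Desmosome genes, the other partners of plakoglobin, were mostly at low levels. Of 14, 3 reached 1 TPM: *Perp*, a tetraspan membrane protein needed for desmosome assembly, with 11.9 TPM, the plakophilin *Pkp2* with 11.7 TPM and the desmocollin *Dsc2* with 3.41 TPM, while desmoplakin, *Dsp*, had a mean of 0.129 TPM. *Perp* stood at 9.33 ± 0.413 TPM in *FVB/N*, 11.9 ± 2.05 TPM in *P0-3.9GFPCre* and 14.5 ± 1.34 TPM in *Le-Cre* (SD, n = 3). Its log2 fold change in *Le-Cre* against *FVB/N* was 0.59 (SE 0.11), past 1.5-fold in size, with an unadjusted p of 0.000168 and an edgeR adjusted p of 0.107, so it was not past the cutoff by the main test. DESeq2 without a prior put it past the cutoff (0.59, DESeq2 adjusted p = 0.00259), and so did edgeR without *P0-3.9GFPCre* replicate 1 (0.59, edgeR adjusted p = 0.0492). It was followed through the alternatives after its values were seen, and over them its adjusted p ran from 0.00115 to 0.909 and its log2 fold change from 0.46 to 0.69. Against *P0-3.9GFPCre*, the *Le-Cre* value was 0.31 (SE 0.11, edgeR adjusted p = 0.5). *Pkp2*, at 0.04 (SE 0.08), and *Dsc2*, at 0.15 (SE 0.11), differed less in *Le-Cre* against *FVB/N*. The summed desmosome level was 23.1 to 25.3 TPM in *FVB/N*, 25.7 to 29.4 TPM in *P0-3.9GFPCre* and 29.3 to 32.9 TPM in *Le-Cre* pools. Without *Perp* the ranges were 14.2 to 15.8 TPM, 14.8 to 15.8 TPM and 15.7 to 16.9 TPM, so the difference of the sum lay mostly in this 1 gene.

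*Ncam1* (chr9:49502136-49798925, minus strand) encodes NCAM, a neural cell adhesion molecule of the immunoglobulin family that is also present on lens cells. It had the largest difference of the 10 between *Le-Cre* and *FVB/N*. The *FVB/N* pools measured 51.5, 58.8 and 58.5 CPM, those of *P0-3.9GFPCre* 47.3, 58.7 and 49.2 CPM, and those of *Le-Cre* 45.6, 48.2 and 45.3 CPM. The *Le-Cre* pools lay below all *FVB/N* pools and overlapped with those of *P0-3.9GFPCre*. In TPM the *Le-Cre* and *FVB/N* pools did overlap, since the highest *Le-Cre* pool had 10.34 TPM and the lowest *FVB/N* pool 10.2 TPM. The log2 fold change was -0.28 in *Le-Cre* against *FVB/N* (SE 0.09, 95% interval -0.48 to -0.08), a change of -17.5%, with an unadjusted p of 0.0101 and an edgeR adjusted p of 0.451. With the Y-linked level as a covariate it was -0.17 (unadjusted p = 0.176 by edgeR), and by limma on log2(TPM + 1) it was -0.21 (unadjusted p = 0.0807). In *P0-3.9GFPCre* it was -0.12 (SE 0.09, edgeR adjusted p = 0.837), and between the transgenic lines it was -0.16 (SE 0.09, edgeR adjusted p = 0.724). Of its 51-base sequences 3.0% also occur in other genes, chiefly the antisense gene *Gm11149*, which held at most 5.23 counts in a pool; the library kit does not mark strand.

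In the rest of its family, *Ncam2* was close to absent, and *Ncam1* made up at least 99.4% of the TPM of both in each pool. The most abundant of 17 other immunoglobulin family adhesion genes were *Cadm1* with 142 TPM, *Nrcam* with 73.6 TPM and *Jam3* with 54.1 TPM, all higher than *Ncam1*. Their log2 fold changes in *Le-Cre* against *FVB/N* were -0.05 (SE 0.07), 0.003 (SE 0.06) and -0.11 (SE 0.07), and 0 of 16 tested genes of this list passed the cutoff in any comparison. *Cadm4* had a log2 fold change of -1.60 (SE 0.46, edgeR adjusted p = 0.359) at a mean of 0.672 TPM. Of the enzymes that add polysialic acid to NCAM, *St8sia2* had a mean of 10.3 TPM and *St8sia4* of 0.336 TPM. *Ncam1* is also a gene of neurons, and 12 markers of retina and neurons summed to 4.55 to 5.32 TPM in *FVB/N*, 3.33 to 6.46 TPM in *P0-3.9GFPCre* and 2.67 to 7.74 TPM in *Le-Cre* pools, led by *Elavl4* with 1.75 TPM, with overlap of all lines. The part of these markers in the *Ncam1* values was not tested.

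*Epha2* (chr4:141301240-141329384, plus strand) encodes the Eph receptor that orders the hexagonal packing of equatorial epithelium and young fibres. It measured 59.8, 62.5 and 70.3 CPM in *FVB/N*, 61.0, 53.7 and 61.5 CPM in *P0-3.9GFPCre* and 72.0, 60.5 and 62.6 CPM in *Le-Cre* pools, and all lines overlapped. The log2 fold change was 0.02 in *Le-Cre* (SE 0.09, 95% interval -0.18 to 0.22) and -0.13 in *P0-3.9GFPCre* (SE 0.09, 95% interval -0.33 to 0.07), each against *FVB/N*, and 0.15 between them (SE 0.09, edgeR adjusted p = 0.744). With the Y-linked level as a covariate the *Le-Cre* value turned to -0.10.

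*Epha2* was the dominant Eph receptor of the lens, at 46.8% to 57.4% of the TPM summed over 14 receptors. *Ephb3* with 7.12 TPM, *Epha5* with 6.73 TPM, *Ephb4* with 4.12 TPM and *Ephb2* with 2.06 TPM were the others that reached 1 TPM. None of the 10 other receptors tested passed the cutoff or had an unadjusted p under 0.05 by edgeR in any comparison. Over all tested genes 6.81% to 7.94% were under that p, so 0 of 10 is not a result about these receptors. The log2 fold changes of the leading ones in *Le-Cre* against *FVB/N* were 0.17 (SE 0.08) for *Ephb3*, -0.03 (SE 0.08) for *Epha5* and -0.20 (SE 0.11) for *Ephb4*.

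The ligand gene *Efna5* measured 50.8, 54.9 and 51.8 CPM in *FVB/N*, 47.3, 50.5 and 40.9 CPM in *P0-3.9GFPCre* and 47.7, 52.3 and 41.3 CPM in *Le-Cre* pools. In CPM the *P0-3.9GFPCre* pools lay below all *FVB/N* pools, and 1 *Le-Cre* pool lay among them. In TPM the *P0-3.9GFPCre* pools, at 13.1 to 15.8 TPM, overlapped with the *FVB/N* pools, at 14.9 to 18.3 TPM. The log2 fold change against *FVB/N* was -0.19 in *P0-3.9GFPCre* (SE 0.10, edgeR adjusted p = 0.768) and -0.16 in *Le-Cre* (SE 0.10, edgeR adjusted p = 0.763), and the latter turned to 0.07 with the Y-linked covariate. *Efnb2* (chr8:8617434-8661242, minus strand), the gene of the transmembrane ligand ephrin-B2, measured 86.2, 90.0 and 96.9 CPM in *FVB/N*, 83.9, 84.0 and 88.6 CPM in *P0-3.9GFPCre* and 94.7, 84.5 and 76.3 CPM in *Le-Cre* pools. *Le-Cre* held both the second highest and the lowest of its 9 values, and its log2 fold change was -0.10 (SE 0.08, edgeR adjusted p = 0.832) in *Le-Cre* and -0.09 (SE 0.08, edgeR adjusted p = 0.867) in *P0-3.9GFPCre*.

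The ratio of ligand to receptor was compared within pools. *Efna5* stood at 0.631 ± 0.0224 of the TPM of *Epha2* in *FVB/N* (SD, n = 3), 0.614 ± 0.112 in *P0-3.9GFPCre* and 0.582 ± 0.0970 in *Le-Cre*, with overlapping pools and two-sided exact permutation p of 0.8 and 0.5 against *FVB/N*, and 0.7 between the lines. *Efna5* made up 70.7% to 81.2% of the TPM of the 5 ephrin-A genes, and *Efnb2* 76.7% to 82.8% of that of the 3 ephrin-B genes. Of the 6 other ephrins, *Efnb1* with 4.38 TPM and *Efna1* with 3.36 TPM reached 1 TPM, and *Efna4* had 0.974 TPM. Their log2 fold changes in *Le-Cre* against *FVB/N* were -0.18 (SE 0.10), 0.001 (SE 0.18) and 0.37 (SE 0.39), respectively. Of the 6, 0 passed the cutoff or an unadjusted p of 0.05 by edgeR in any comparison. Over all tested genes 6.81% to 7.94% were under that p, so 0 of 6 is not a result about these ephrins.

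**Figure D3:**
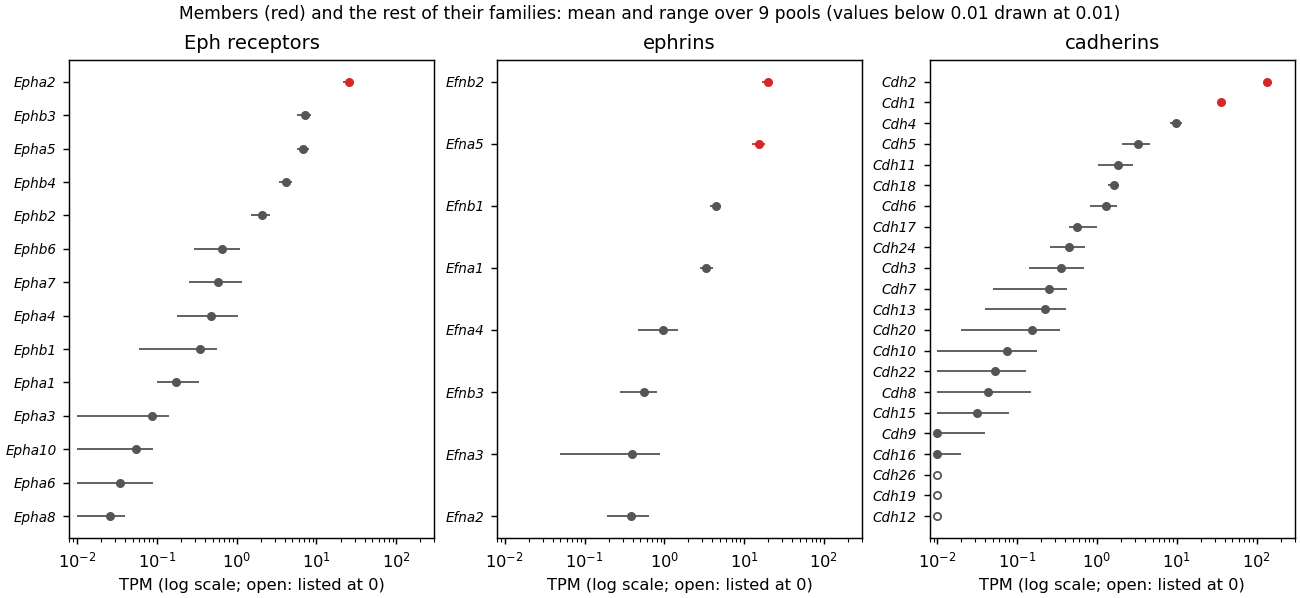
Mean TPM on a log scale over the 9 pools, with lines from the lowest to the highest pool, for 14 Eph receptors, 8 ephrins and 22 cadherins; the 10-gene list's members are red and other genes grey. *Epha2* at 25.4 TPM stands above all other Eph receptors, *Efnb2* and *Efna5* above all other ephrins, and *Cdh2* and *Cdh1* above all other cadherins drawn.

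Genes listed here around Eph receptor signalling and NCAM, whose roles in the lens were not examined, were mostly present, and none passed the cutoff. Of 17 such genes, 14 had a mean of at least 1 TPM, led by *Pdlim1*, a PDZ and LIM domain protein, with 117 TPM, the ephrin-cleaving protease *Adam10* with 63.9 TPM and the phosphatase *Ptpn11* with 35.0 TPM. Their log2 fold changes in *Le-Cre* against *FVB/N* were 0.12 (SE 0.08), -0.08 (SE 0.06) and -0.12 (SE 0.08), and 0 of 17 passed the cutoff. *Ngef*, the gene of the exchange factor ephexin-1 that acts below EphA receptors, had 35.4 ± 0.967 TPM in *FVB/N*, 29.1 ± 4.55 TPM in *P0-3.9GFPCre* and 29.9 ± 1.79 TPM in *Le-Cre* (SD, n = 3). Its log2 fold change was -0.28 (SE 0.08, edgeR adjusted p = 0.331) in *Le-Cre* and -0.32 (SE 0.08, edgeR adjusted p = 0.59) in *P0-3.9GFPCre*, with unadjusted p of 0.00398 and 0.00141. Regulators known for repressing or keeping *Cdh1* were led by *Zeb2* with 20.3 TPM and *Zeb1* with 9.68 TPM, whereas *Snai2* had 0.389 TPM and *Ovol2* was listed at 0. Of this list of 10, 4 were tested and 0 passed the cutoff, with log2 fold changes in *Le-Cre* against *FVB/N* of -0.11 (SE 0.07) for *Zeb2*, -0.05 (SE 0.09) for *Zeb1* and -0.50 (SE 0.57) for *Snai2*.

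The effective length of a gene, which RSEM weights by the transcripts it assigns reads to, varied between pools for some members and enters TPM but not CPM. For *Ctnna1* it was 3648 bases in every pool, and for *Efnb2* it ranged from 4725 to 4743 bases. For *Epha2* it ranged from 2388 to 3043 bases, for *Jup* from 1942 to 3076 bases and for *Ctnnd1* from 4244 to 5363 bases, in all of them with overlap of the lines. The coefficient of variation over the 9 pools was wider in TPM than in CPM for *Epha2* (12.2% against 8.80%) and *Efna5* (12.2% against 9.98%), and narrower for *Jup* (15.7% against 19.01%) and *Ctnnd1* (8.50% against 8.97%). *Cdh1* was the member whose effective length separated a line from both others. It was 4139 to 4255 bases in the *Le-Cre* pools and 4031 to 4116 bases in the other 6, a description with no test, and its 3 annotated transcripts were not told apart here. For *Ncam1* the *P0-3.9GFPCre* pools (5099 to 5297 bases) did not overlap with the *FVB/N* pools (5332 to 5388 bases). For *Cdh2* the *P0-3.9GFPCre* pools (4181 to 4248 bases) did not overlap with the *Le-Cre* pools (4250 to 4315 bases).

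*Efna5* has only the 2 transcripts described above, of 4032 and 643 bases in GENCODE M21, so its mean length in a pool implies a share for each if these lengths were those the authors used; their annotation release is not given in the sources used here. The implied share of the short transcript was 11.1%, 22.03% and 23.5% in the *FVB/N* pools, 10.4%, 15.2% and 17.9% in *P0-3.9GFPCre* and 15.6%, 18.2% and 19.2% in *Le-Cre*. The lines overlapped, and the widest spread was within *FVB/N*. The share rests on an implied 19.6 to 55.4 reads per pool and on transcript length, not on reads across the junctions printed above. Most of the difference between 4032 and 643 bases lies outside the 81 bases of exon 4. The share therefore does not count the exon directly and does not measure its skipping.

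**Figure D4:**
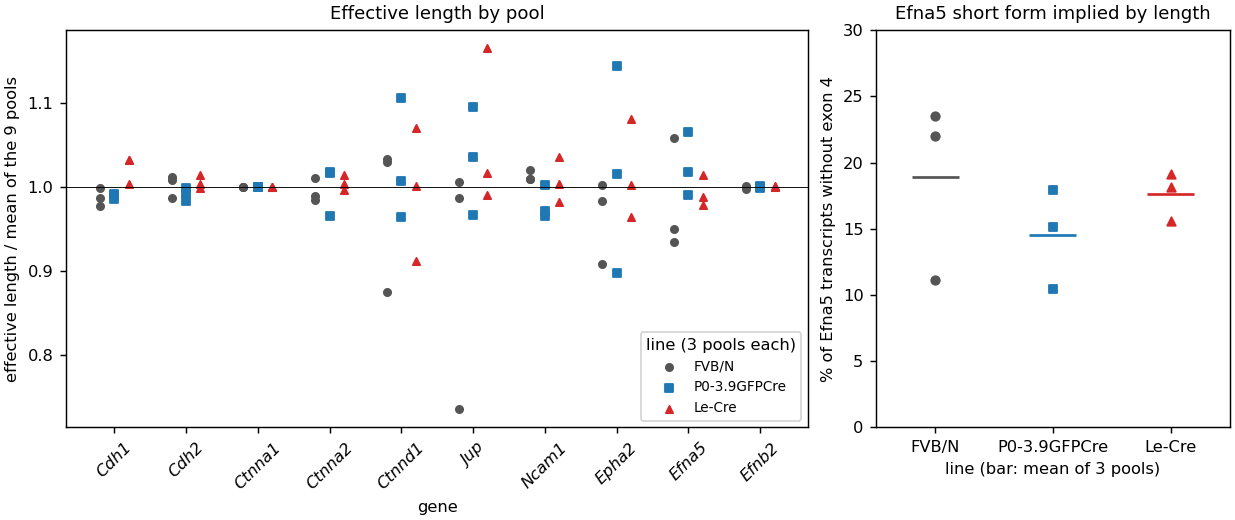
Left, effective length of each of the 10 genes in each pool divided by the gene's mean over the 9 pools; right, the percentage of *Efna5* transcripts of the short form that the length implies, per pool with a bar at the mean of each line. *Ctnna1* and *Efnb2* stay at 1, the *Cdh1* lengths of all 3 *Le-Cre* pools lie above those of the other pools, and the *Efna5* shares run from 10.4% to 23.5% with overlap of the lines.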

How the data were processed

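Total RNA of whole lenses was poly(A)-selected and sequenced as single-end reads. The authors trimmed reads with Trimmomatic 0.36, aligned them by GSNAP to GRCm38 and estimated gene abundance by RSEM 1.3.0; the annotation release is not given in the sources used here. Expected counts are the authors' deposited RSEM estimates, not normalized, and the deposited TPM values are scaled by RSEM for effective length and library. RSEM divides reads that fit several genes among them.

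Samples were grouped by the line in their titles. The titles number the replicates alike in each line, but same-numbered pools did not deviate together on average (mean r 0.031 over 9 pairs, against -0.0155 over 18 pairs of different number), so the numbers were not used to pair. Deviations were taken from each line's own mean, which ties these 2 mean values to each other, so they are not separate readings. The number of the title was used for *FVB/N* replicate 3, whose description carries another number. Between the 2 transgenic lines alone, r was 0.065 to 0.133 for pairs of the same number and -0.10 to -0.024 for the others. A fit with the replicate number as a block is among the alternatives. Any 2 pools differed by at least 9.78 in chi-square per degree of freedom, and none was a copy. P-values measure the spread between pools of 3 mice.

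Expected counts were rounded. In R 4.3.3, edgeR 4.0.16 fitted all 9 pools with TMM, filterByExpr, 1 coefficient per line, glmQLFit and glmQLFTest, with Benjamini-Hochberg adjustment. The standard error was taken as the size of the log2 fold change over the root of the F statistic, and intervals use the fitted degrees of freedom. The study's methods name DESeq2; DESeq2 1.42.0 and limma 3.58.1 on log2(TPM + 1) and log2(TPM + 0.1) of genes with a mean of at least 0.1 TPM served as alternatives, beside other normalization, filters, covariates, samples and fits without each pool. Ratios were compared by exact permutation. The script was tested on simulated data. Sequences and coordinates come from GENCODE M21. Shared sequence was counted in 51-base windows.

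The members and lists were chosen with earlier results of these data known. Named are all members and, from each wider list, every gene past the cutoff, up to 3 of highest TPM and up to 3 of smallest unadjusted p under 0.05 in *Le-Cre* against *FVB/N*; for the marker lists, the named genes are up to 3 of highest TPM. Other genes named by level (*Cdh18*, *Cdh6*, *Ephb2*, *Dsp*, *St8sia2*, *St8sia4*, *Ncam2*, genes listed at 0) were named after their values were seen. Markers of macrophages summed to 0.97 to 2.71 TPM, of blood to 85.2 to 263 TPM and of pigment epithelium and iris to 7.98 to 17.1 TPM. CRE transcripts were not analysed here.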

Additional observations from a re-analysis of the deposited data

How the results depend on the processing

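Members past the cutoff numbered 0 of 10 in all 3 comparisons under each of the 20 alternatives, 9 of which left out 1 pool. With the replicate block, members past the cutoff were again 0, and genes past it over all tested were 2, 0 and 0 (*Le-Cre* against *FVB/N*, *P0-3.9GFPCre* against *FVB/N*, *Le-Cre* against *P0-3.9GFPCre*, the order used throughout) in place of 10, 0 and 0; it changed no member's call. Over all genes the count moved with the setting: 49, 2 and 35 by DESeq2 without and 8, 1 and 4 with a prior, 131, 93 and 123 without the filter, 5, 0 and 0 for genes averaging 10 counts or more, 0, 0 and 0 with the Y-linked covariate, 3, 0 and 2 by limma with a pseudocount of 1 and 2, 0 and 2 with 0.1, 13, 0 and 31 with the compared pools only, and 0 to 10, 0 to 14 and 0 to 18 without 1 pool, the highest of the last 2 without *FVB/N* replicate 2. Of the wider lists, *Perp*, followed through the alternatives after its adjusted p was seen, alone was past the cutoff under any alternative, in *Le-Cre* against *FVB/N* by DESeq2 without a prior (0.59), without the filter (0.59) and without *P0-3.9GFPCre* replicate 1 (0.59).

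Some log2 fold changes near 0 changed sign; the cause was not tested, and no such value was past the cutoff. In *Le-Cre* against *FVB/N*, the Y-linked covariate gave -0.022 for *Ctnna1*, -0.097 for *Epha2* and 0.067 for *Efna5*, and limma gave *Epha2* -0.017 (pseudocount 1) and -0.018 (0.1). In *P0-3.9GFPCre* against *FVB/N*, limma gave 0.0326 and 0.0328 for *Cdh2* and 0.0401 and 0.0408 for *Ctnna1*, and summing *Gm28635* gave 0.030 for *Ctnnd1*. In *Le-Cre* against *P0-3.9GFPCre*, limma gave -0.0159 and -0.0164 for *Ctnna2*, and *Jup* had 0.00047 with median-of-ratios size factors, 3.68e-05 by DESeq2 with a prior, 0.0011 without the filter and 0.0023 for genes averaging 10 counts or more. On expected counts in place of TPM, the difference in the *Cdh2* to *Cdh1* ratio between these lines was -0.075 in place of 0.0022.

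Leaving out 1 pool at a time, these values crossed 0. In *Le-Cre* against *FVB/N* the log2 fold change ranged from -0.0030 to 0.095 for *Ctnna1*, -0.16 to 0.012 for *Ctnnd1*, -0.13 to 0.35 for *Jup* and -0.059 to 0.094 for *Epha2*. In *P0-3.9GFPCre* against *FVB/N* it ranged from -0.070 to 0.027 for *Ctnna1*, -0.085 to 0.048 for *Ctnnd1* and -0.13 to 0.34 for *Jup*. In *Le-Cre* against *P0-3.9GFPCre* it ranged from -0.083 to 0.0069 for *Cdh1*, -0.036 to 0.087 for *Ctnna2*, -0.15 to 0.040 for *Ctnnd1*, -0.085 to 0.063 for *Jup*, -0.052 to 0.11 for *Efna5* and -0.088 to 0.067 for *Efnb2*. Between these lines the difference ranged from -0.075 to 0.062 for the *Cdh2* to *Cdh1* ratio, -1.46 to 0.375 percentage points for the *Ctnna2* share and -0.084 to 0.027 for the *Efna5* to *Epha2* ratio, which in *P0-3.9GFPCre* against *FVB/N* ranged from -0.076 to 0.035. Others kept their sign but moved by over 1.5 times, such as these without 1 pool. In *Le-Cre* against *FVB/N*, *Cdh1* had -0.089 without *Le-Cre* replicate 2, *Efna5* -0.24 and -0.072 without *Le-Cre* replicates 2 and 3, *Ctnnd1* -0.15 and -0.16 without the same, and *Efnb2* -0.18 without *Le-Cre* replicate 1, -0.024 without *Le-Cre* replicate 3 and -0.046 without *FVB/N* replicate 3. In *P0-3.9GFPCre* against *FVB/N*, without *P0-3.9GFPCre* replicate 3 *Cdh1* had -0.055, *Cdh2* -0.026 and *Efna5* -0.10, *Ncam1* -0.060 and -0.22 without that line's replicates 1 and 2, *Epha2* -0.063 without the second, and without *FVB/N* replicate 3 *Cdh1* had -0.065, *Epha2* -0.056 and *Efnb2* -0.043. In *Le-Cre* against *P0-3.9GFPCre*, *Ncam1* had -0.057 and *Epha2* 0.086 without *P0-3.9GFPCre* replicate 2, *Epha2* 0.068 without *Le-Cre* replicate 1, *Cdh2* -0.039 without *Le-Cre* replicate 2, and *Ctnna1* 0.040 to 0.099. With the Y-linked covariate, *Ncam1* had -0.17 and -0.065 in the first 2 comparisons and *Efna5* -0.067 in the second, where limma with a pseudocount of 1 gave *Ctnna2* -0.11, *Ncam1* -0.0067 and *Efnb2* -0.020. With 3 pools a line, only the intervals, not the missed cutoff, bound how large a difference could be.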
